A study of Mus musculus with 12 samples.

Results

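The kinesin motor genes were taken from the count table by symbol, as every row named Kif followed by a number and at most 1 of the letters a, b and c, together with Kifc1, Kifc2 and Kifc3. The rule found 41 genes among the 36255 of the table. By known function, 12 of them are mitotic kinesins, 12 are kinesins of axonal transport, 7 work in or at cilia and centrioles, and 10 do other work. The data are gene counts from poly(A) RNA-seq of mouse embryos, 11 libraries in all. At 9.5 days post coitum (dpc) the groups are Skp1aKO (2 libraries), Skp1acont PI (1 library), Skp1acont (2 libraries), wt PI (2 libraries) and wt (2 libraries), and the last group is wt at 9.0 dpc (2 libraries). The terms "mb", which stands in every title, "PI" and "cont" are left undefined by the labels, which name no Cre line, strain or age of the mothers, and give embryo as the source while the growth medium is one for ES cells and embryoid bodies, so neither the part of the embryo nor the deleted cells are known here. Skp1a encodes an adaptor subunit of ubiquitin ligases, and the study asks about its role in the breakdown of PRC2, a Polycomb complex.

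Kinesins are motor proteins that hydrolyse ATP to walk along microtubules or to take them apart at their ends. In dividing cells they build the spindle, move chromosomes and complete cytokinesis, and genes of this kind are transcribed mostly in late interphase and mitosis. In neurons, kinesins carry vesicles, mitochondria and cytoskeletal cargo from the cell body along the axon. An embryo at these stages holds dividing neuroepithelium as well as the first neurons.

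Mitotic kinesin promoters commonly hold the letters TTTGAA, known as the cell cycle genes homology region, and CCAAT, the letters that the factor NF-Y binds. Promoter sequences of 250 bases before to 50 bases after each start were available for 32 of the 41 genes from RefSeq on GRCm38.p6. Read on both strands, TTTGAA stood in at least 1 promoter of 10 of 11 mitotic kinesin genes, with Kif18a as the exception. It stood in 1 of 7 axonal transport kinesin genes (Kif1a), 1 of 6 cilium genes (Kif27) and 1 of 8 others (Kif26b). Of all 27025 genes with a promoter in the table, 20.23% held it. CCAAT stood in 7 of 11 mitotic genes, 3 of 7 axonal transport genes and 41.06% of all genes. In no kinesin promoter did a match of one motif overlap a match of the other, and a match describes the letters only. The stretches below run from 70 bases before to 30 bases after the start on the strand of the gene, and capitals mark TTTGAA or its reverse complement TTCAAA. Kif11, Kif15, Kif22 and Kif4 are shown as mitotic genes with the letters near the start, Kif18a as the mitotic gene without them, and Kif21a and Kif5c as the axonal transport genes on which the results between stages turn.
Kif11, chromosome 19, 37376312 to 37376411, plus strand: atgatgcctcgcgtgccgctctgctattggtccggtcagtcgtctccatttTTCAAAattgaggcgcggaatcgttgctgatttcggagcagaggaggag
Kif15, chromosome 9, 122951011 to 122951110, plus strand: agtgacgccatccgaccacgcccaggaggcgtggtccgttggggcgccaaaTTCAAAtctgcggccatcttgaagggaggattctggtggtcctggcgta
Kif22, chromosome 7, 127042391 to 127042490, minus strand: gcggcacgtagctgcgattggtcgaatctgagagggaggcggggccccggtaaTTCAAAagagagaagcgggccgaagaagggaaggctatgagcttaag
Kif4, chromosome X, 100625995 to 100626094, plus strand: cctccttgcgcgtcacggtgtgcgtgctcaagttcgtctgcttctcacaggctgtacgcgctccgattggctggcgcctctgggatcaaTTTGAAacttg
Kif18a, chromosome 2, 109280668 to 109280767, plus strand: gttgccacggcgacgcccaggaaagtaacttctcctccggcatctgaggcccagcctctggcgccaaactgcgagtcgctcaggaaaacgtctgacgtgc
Kif21a, chromosome 15, 91049922 to 91050021, minus strand: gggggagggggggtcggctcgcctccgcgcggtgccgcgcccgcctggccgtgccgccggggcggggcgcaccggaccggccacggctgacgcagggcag
Kif5c, chromosome 2, 49619216 to 49619315, plus strand: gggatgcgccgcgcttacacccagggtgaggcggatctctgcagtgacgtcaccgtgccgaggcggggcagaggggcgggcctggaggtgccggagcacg

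Total counts ran from 2320599 to 11607085 per library, of which the kinesin genes took 2845 to 16870 counts. The libraries with a Skp1a label stood apart from the wt libraries. Mitochondrial genes took 5.98% to 15.8% of their counts, against 2.44% to 4.01% in wt, and a background rate, read from 1770 chemoreceptor genes that should be silent in an early embryo, was 3.54 to 17.0 times the lowest library, against 1 to 2.09 times in wt. Skp1acont replicate 2 had the highest value of both and the lowest total. Skp1a itself had 199 and 212 CPM (counts scaled to library size by TMM) in libraries labelled Skp1aKO, 273 CPM in Skp1acont PI, 303 and 104 CPM in Skp1acont, and 930 to 1337 CPM in the wt libraries at both stages and with PI, so that its count did not separate the first 2 labels. Whether libraries of 1 group stem from different embryos is not stated, so the p-values reflect the spread of these libraries alone, and that spread may be technical.

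The kinesin genes covered a wide range of levels. Per kb of exon, in wt embryos at 9.5 dpc, Kif5b, the kinesin-1 heavy chain used by most cell types, was highest with 58.5 CPM per kb. It was followed on the same scale by Kif2a, a microtubule depolymerase, with 27.0, and by Kif20a, which brings the chromosomal passenger complex to the spindle midzone, with 26.0 CPM per kb. Kif21a, a kinesin that restrains microtubule growth and acts in axon guidance, had 20.5, and Kif11, the tetrameric motor that slides spindle poles apart, had 12.7 CPM per kb. The neuronal kinesin-1 chains were lower on this scale, with 9.84 CPM per kb for Kif5c and 1.24 for Kif5a. Kif1a, the carrier of synaptic vesicle precursors, had 0.58 CPM per kb. Kif12 and Kif2b had no count in wt libraries at 9.5 dpc, which allows at most 1.10 CPM in replicate 1 and 0.406 CPM in replicate 2 (3 counts per library, counting error only). Exons shared with another gene make up 29.3% of Kif20a, 19.2% of Kif2a, 15.1% of Kif4 and 40.7% of Kif3c, and the use of strand in counting is not given, so counts of these genes may include reads of their neighbours.

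**Figure D1:**
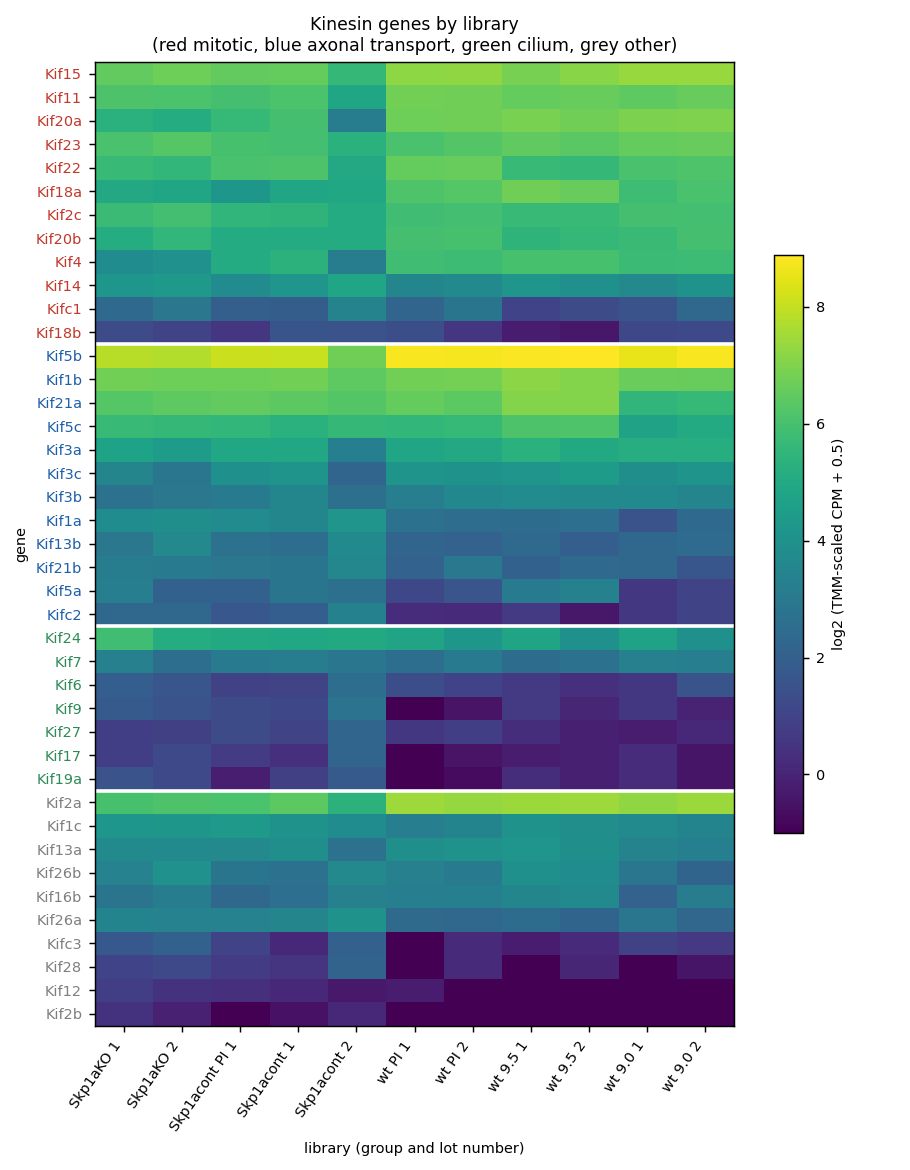
Each row is a kinesin gene and each column a library, and the colour is log2 (TMM-scaled CPM + 0.5). Rows are grouped as mitotic, axonal transport, cilium and other kinesins and sorted by mean within a group. Kif5b is the brightest row, and Kif21a, Kif5c and Kif5a are brighter in wt at 9.5 dpc than in wt at 9.0 dpc.

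Between wt embryos at 9.5 and at 9.0 dpc, which the labels tell apart by stage alone, the neuronal kinesins Kif5a and Kif5c rose with Kif21a and Kif1b, while mitotic kinesins were called in both directions. The 6 wt libraries were fitted together with edgeR's quasi-likelihood test with Benjamini-Hochberg adjustment over 13126 genes, and genes with an adjusted p under 0.05 are named as called. Of the 41 kinesin genes, 31 passed the filter on low counts and 11 were called, 9 higher and 2 lower at 9.5 dpc. In the same comparison 31.7% of all genes tested were called, 15% higher and 16.7% lower. The axonal transport kinesins had 4 of 11 called, all higher, with a median log2 fold change of 0.42, and the mitotic kinesins had 2 higher and 2 lower of 11 with a median of -0.14. Over all genes the median was -0.02.

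Kif5a, a kinesin-1 heavy chain of neurons, had 7.71 and 9.60 CPM in wt at 9.5 dpc, against 1.04 and 1.54 CPM in wt at 9.0 dpc. The 2 lower values rest on 3 and 13 counts, and the groups did not overlap. The log2 fold change was 2.68 ± 0.35 (SE, n = 2 each, edgeR adjusted p = 0.000477). Kif5c, its close relative, likewise enriched in neurons, had 69.7 and 70.7 CPM at 9.5 dpc, against 25.3 and 32.4 CPM at 9.0 dpc. Both libraries at 9.5 dpc lay above both at 9.0 dpc (log2 fold change 1.30 ± 0.13, edgeR adjusted p = 0.000106). Kif5b, the chain found in most cells, had 458 and 475 CPM at 9.5 dpc, against 381 and 450 CPM at 9.0 dpc. Its log2 fold change of 0.20 ± 0.10 did not pass the test. Within the summed counts of these 3 genes, the share of Kif5c was 13.0% and 12.7% at 9.5 dpc, against 6.20% and 6.69% at 9.0 dpc, and that of Kif5a was 1.44% and 1.73%, against 0.255% and 0.319%. These shares compare counts within a library, are not corrected for gene length, and show that the makeup of the kinesin-1 counts differed between stages.

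Kif21a had 132 and 134 CPM at 9.5 dpc, against 45.3 and 49.0 CPM at 9.0 dpc. It had the smallest p of all kinesin genes in this comparison (log2 fold change 1.53 ± 0.10, edgeR adjusted p = 1.03e-05). Kif1b, which carries mitochondria and synaptic vesicle precursors, had 144 and 132 CPM at 9.5 dpc, against 99.3 and 95.8 CPM at 9.0 dpc, a log2 fold change of 0.53 ± 0.10 that passed the test. The other axonal transport genes did not pass. Kif1a had 5.14 and 5.68 CPM at 9.5 dpc, against 2.42 and 4.74 CPM at 9.0 dpc (log2 fold change 0.52 ± 0.33). Kif3a, the kinesin-2 subunit that serves both cilia and axons, had 38.9 and 31.6 CPM at 9.5 dpc, against 35.6 and 35.0 CPM at 9.0 dpc, and these ranges overlap.

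Among the mitotic genes, Kif18a, the kinesin-8 that dampens chromosome movements on the metaphase plate, had 106 and 97.2 CPM at 9.5 dpc, against 56.0 and 66.5 CPM at 9.0 dpc. The stages did not overlap, and the log2 fold change was 0.75 ± 0.12 (edgeR adjusted p = 0.00136). Kif4, a chromokinesin, had 65.0 and 64.2 CPM at 9.5 dpc, against 52.6 and 54.2 CPM at 9.0 dpc (log2 fold change 0.30 ± 0.10), and was called. Kif22, the chromokinesin that pushes chromosome arms away from the poles, had 51.8 and 47.5 CPM at 9.5 dpc, against 65.4 and 71.5 CPM at 9.0 dpc. It fell (log2 fold change -0.44 ± 0.11, edgeR adjusted p = 0.0135). Kif15, which backs up Kif11 in holding the spindle bipolar, fell as well (log2 fold change -0.33 ± 0.10). The remaining panel did not pass the test. Kif11 had 93.2 and 96.0 CPM at 9.5 dpc, against 86.8 and 96.2 CPM at 9.0 dpc. Kif20a had 119 and 107 CPM at 9.5 dpc, against 122 and 126 CPM at 9.0 dpc. Kif23, the motor of the centralspindlin complex in cytokinesis, had 87.7 and 81.2 CPM at 9.5 dpc, against 93.7 and 96.1 CPM at 9.0 dpc. Kif11 overlapped between the stages, whereas Kif20a and Kif23 at 9.5 dpc lay just below their values at 9.0 dpc (log2 fold changes 0.08, -0.11 and -0.14). Kif2c, the depolymerase of the centromere, had 49.9 and 51.0 CPM at 9.5 dpc, against 62.3 and 61.5 CPM at 9.0 dpc.

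The lot number pairs the wt libraries, and with the lot as a replicate block 16 kinesin genes were called, 10 higher and 6 lower, while 41.7% of all genes were called. The block adds Kif2c, Kif20b, Kifc1 and Kif7, all lower at 9.5 dpc, and Kif1c, which was higher, and the mitotic genes then count 2 higher and 5 lower of 11. Scaling by library totals in place of TMM gave 10 calls, all higher (28.8% of all genes called), with Kif22 and Kif15 no longer past the test, and the median of all genes was then 0.09. Leaving out 1 library leaves 1 in its group, which is then assumed to vary like the other groups. In such fits Kif21a, Kif5c, Kif5a, Kif18a, Kif1b and Kif26b were called with each of the 4 libraries left out in turn, whereas Kif4 was called in none of these fits, Kif15 and Kif16b in 1, and Kif22 in 2. The count was 7 without wt 9.0 dpc replicate 2 (20% of all genes called), and DESeq2 called 6, all of them higher (18% of all genes).

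Outside these roles, Kif26b, an atypical kinesin whose motor domain lacks ATPase activity, had 15.1 and 13.7 CPM at 9.5 dpc, against 6.92 and 4.03 CPM at 9.0 dpc (log2 fold change 1.51 ± 0.27, edgeR adjusted p = 0.00275). Kif13a and Kif16b, motors of endosomal membranes, rose by 0.73 ± 0.18 and 0.91 ± 0.29 on the log2 scale. Of the cilium kinesins only Kif6, Kif7 and Kif24 passed the filter, and none was called without the block. Kif7, which organises the tip of the primary cilium in Hedgehog signalling, had 5.14 and 6.09 CPM at 9.5 dpc, against 9.34 and 8.89 CPM at 9.0 dpc (log2 fold change -0.64 ± 0.26).

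**Figure D2:**
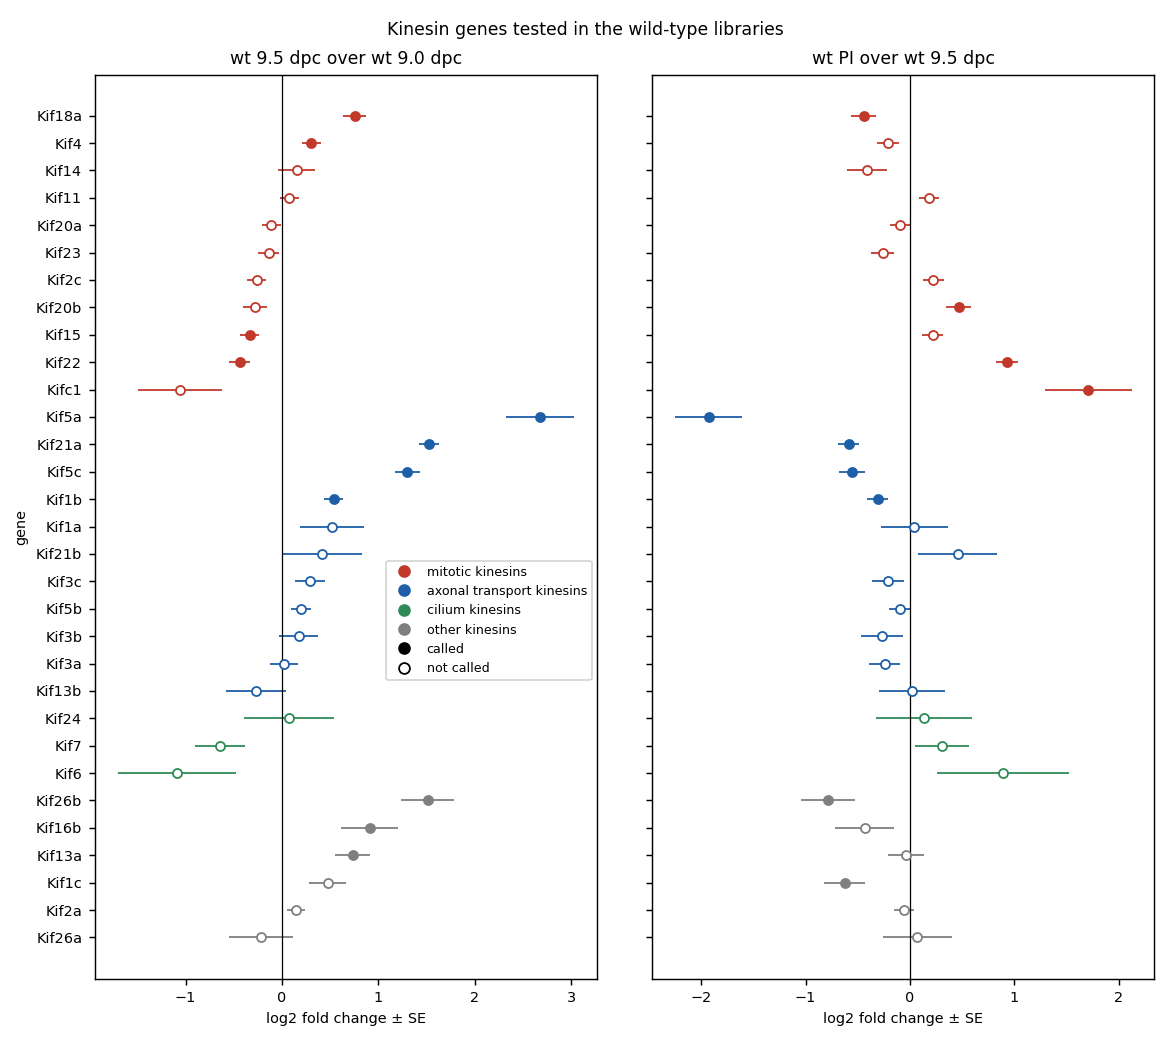
Points give the log2 fold change of each tested kinesin gene with its standard error, for wt at 9.5 dpc over wt at 9.0 dpc on the left and wt PI over wt at 9.5 dpc on the right. Filled points were called at an adjusted p under 0.05. Kif5a, Kif21a, Kif5c and Kif1b are filled on the positive side on the left and on the negative side on the right, and both panels share the wt 9.5 dpc libraries.

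Markers of neurons were higher at 9.5 dpc, as were Kif5a and Kif5c. All 14 of 14 neuron markers tested were called higher at 9.5 dpc, with a median log2 fold change of 3.22, among them Dcx (5.24), Nefl (3.82), Tubb3 (2.85) and Map2 (2.67). Their summed level was 1120 and 1164 CPM at 9.5 dpc, against 173 and 194 CPM at 9.0 dpc, where Nhlh1 was at 0 in both libraries and Nhlh2 in 1. In bulk tissue, fewer cells of a type and less RNA per cell cannot be told apart, and the part of the neuron markers in the kinesin differences was not tested. Markers of neural progenitors had 8 of 10 called higher (median 1.32) and surface ectoderm markers 4 of 5 lower (median -1.70). Erythroid markers had 3 of 8 higher, endothelial markers 1 of 6 higher, mesenchyme markers 3 higher and 2 lower of 8, midbrain markers 2 higher and 3 lower of 6, and neither of 2 placenta markers was called.

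Genes that work with kinesins were called between the stages at 31.6% of the light chains and cargo adaptors and 34.8% of the mitotic partners, near the 31.7% of all genes. Of 19 kinesin light chains and cargo adaptors tested, 6 were higher at 9.5 dpc and none lower, with a median log2 fold change of 0.54. They include Ppfia2, a liprin of synapse formation (2.04), Fez1, an adaptor of kinesin-1 (1.57), Trak1, which links kinesin-1 to mitochondria (0.91), and Kifbp, a binder of kinesin motor domains (0.62). Of 23 mitotic partners, which include Cenpe, the kinetochore kinesin that the naming rule leaves out, 3 were higher and 5 lower, with a median of -0.09. Cdk1 (-0.76), the kinase of mitotic entry, and Plk1 (-0.75), a spindle kinase, fell, while Mki67 (0.56), a proliferation marker, and Ect2 (0.55), a cytokinesis exchange factor, rose. Dynein and dynactin genes, which move cargo the opposite way, had 2 higher and 4 lower of 18.

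The summed level of the axonal transport kinesins was 895 and 901 CPM at 9.5 dpc, against 628 and 705 CPM at 9.0 dpc, while that of the mitotic kinesins was 752 and 750 CPM, against 773 and 823 CPM. The ratio of axonal over mitotic kinesins was 1.19 and 1.20 at 9.5 dpc, against 0.812 and 0.856 at 9.0 dpc. The sums are dominated by Kif5b, Kif1b and Kif21a on the axonal side, and are descriptions with no test.

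**Figure D3:**
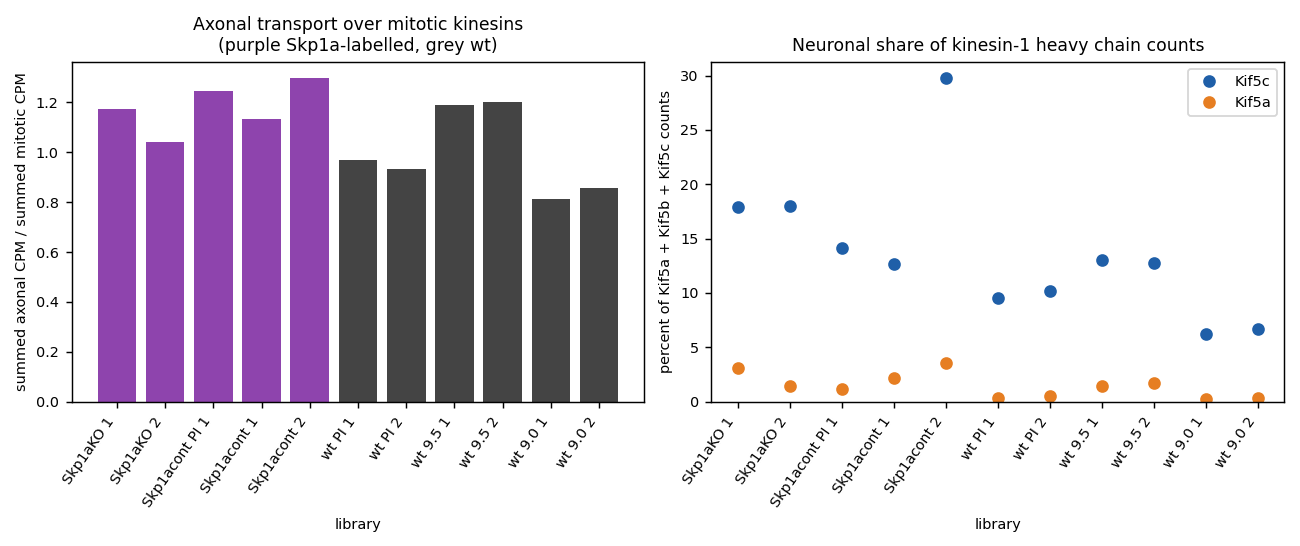
On the left, bars give the summed CPM of axonal transport kinesins over that of mitotic kinesins in each library, and on the right, points give the percentage of Kif5a and Kif5c among the counts of Kif5a, Kif5b and Kif5c. In wt the ratio is 1.19 and 1.20 at 9.5 dpc, 0.967 and 0.932 with PI and 0.812 and 0.856 at 9.0 dpc, and the share of Kif5c has the same order.

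Embryos labelled wt PI were then set against wt at the same stage. Kif5a, Kif5c, Kif21a and Kif1b were lower with PI, and the mitotic kinesins Kif22, Kif20b and Kifc1 were higher. Of 31 kinesin genes tested 10 were called, 3 higher and 7 lower in wt PI, while 28% of all genes were called (15.6% higher and 12.4% lower). The lot block called the same 10 genes, and 38.9% of all genes. The axonal transport kinesins had 4 of 11 called, all lower, with a median log2 fold change of -0.24, and the mitotic kinesins had 3 higher and 1 lower of 11 with a median of 0.18, against 0.01 over all genes. This comparison shares the wt 9.5 dpc libraries with the one between stages, so opposite signs in the 2 are in part built in and their likeness is given no weight.

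Kif22 had 94.1 and 95.4 CPM in wt PI, against 51.8 and 47.5 CPM in wt at 9.5 dpc. The ranges lie far apart, and the log2 fold change was 0.93 ± 0.11 (edgeR adjusted p = 0.000458). Kif20b, a kinesin of late cytokinesis, had 63.1 and 64.4 CPM in wt PI, against 43.3 and 48.3 CPM in wt (log2 fold change 0.47 ± 0.12, edgeR adjusted p = 0.0183). Kifc1, a minus-end directed motor that focuses spindle poles, had 4.14 and 6.78 CPM in wt PI, against 1.47 and 1.89 CPM in wt (log2 fold change 1.70 ± 0.42, edgeR adjusted p = 0.0138). Kifc1 shares 38.6% of its 50-base words with Kifc5b, a near copy that had 3.45 and 3.66 CPM in wt PI, against 0.734 and 2.30 CPM in wt, so the split of reads between them is uncertain. Of the other mitotic genes, Kif18a was called lower (-0.44) and the rest of those tested did not pass. Kif11 had 109 and 108 CPM in wt PI (log2 fold change 0.18), Kif20a had 105 and 107 CPM (-0.09), and Kif4 had 57.2 and 55.1 CPM (-0.21). Kif23, with 66.5 and 74.6 CPM in wt PI, and Kif2c, with 57.9 and 60.4 CPM, were not called either.

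Kif5a had 1.72 and 2.58 CPM in wt PI, against 7.71 and 9.60 CPM in wt at 9.5 dpc, which is a log2 fold change of -1.93 ± 0.32 (edgeR adjusted p = 0.0023). Kif21a had 93.8 and 84.6 CPM in wt PI, against 132 and 134 CPM in wt (log2 fold change -0.59 ± 0.10, edgeR adjusted p = 0.00245). Kif5c had 46.9 and 49.1 CPM in wt PI, against 69.7 and 70.7 CPM in wt (log2 fold change -0.55 ± 0.13, edgeR adjusted p = 0.0104). In each of these 3 genes, which were picked as called, both PI libraries lay below both wt libraries at 9.5 dpc. Kif5b, with 444 and 433 CPM in wt PI, against 458 and 475 CPM in wt, and Kif3a, with 28.6 and 30.7 CPM, against 38.9 and 31.6 CPM, did not pass the test. Kif1a had 6.21 and 5.27 CPM in wt PI, against 5.14 and 5.68 CPM in wt, with overlapping ranges.

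Kif1b, Kif18a, Kif1c and Kif26b were the other kinesins called lower with PI, with log2 fold changes of -0.31, -0.44, -0.63 and -0.79. Neuron markers were lower with PI in 12 of 14 genes (median -1.45, summed level 409 and 416 CPM in wt PI, against 1120 and 1164 CPM in wt), and 7 of 10 neural progenitor markers were lower (median -0.88). Midbrain markers had 4 higher and 2 lower of 6, surface ectoderm markers 2 of 5 higher, erythroid and mesenchyme markers 3 of 8 lower each, and no endothelial or placenta marker was called. The part of these markers in the kinesin values was not tested. Mitotic partners had 7 higher and 1 lower of 23 (median 0.11), such as Plk1 (1.20), Aurka (1.20) and Cdk1 (0.88) higher and Mki67 (-0.69) lower, and light chains and adaptors had 1 higher and 3 lower of 19. Kif22 and Kif5a stayed called with any 1 of the 4 libraries left out. The count of calls was 4 without wt PI replicate 1 (11.8% of all genes called), 2 without wt PI replicate 2 (10.4%), 4 without wt 9.5 dpc replicate 1 (15.7%) and 7 without wt 9.5 dpc replicate 2 (25.6%). DESeq2 called 5, and 16.4% of all genes.

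Against wt at 9.0 dpc, the PI libraries at 9.5 dpc had 5 of 31 kinesin genes called, 4 higher and 1 lower, while 15.6% of all genes were called (8.6% higher and 6.99% lower). Kif21a, with 93.8 and 84.6 CPM in wt PI, against 45.3 and 49.0 CPM in wt at 9.0 dpc, was higher (log2 fold change 0.94 ± 0.10, edgeR adjusted p = 0.000547). Kif5c, with 46.9 and 49.1 CPM, against 25.3 and 32.4 CPM, was also higher (0.75 ± 0.13). Kif5a, at 1.72 and 2.58 CPM in wt PI, against 1.04 and 1.54 CPM, was not called. The PI libraries lay between the 2 wt groups for Kif21a and Kif5c and just above the younger group for Kif5a. Kif13a, with 14.8 and 15.8 CPM in wt PI, against 10.4 and 9.24 CPM in wt at 9.0 dpc, and Kif22, with 94.1 and 95.4 CPM, against 65.4 and 71.5 CPM, were the other higher genes. Kif23 was lower, with 66.5 and 74.6 CPM in wt PI, against 93.7 and 96.1 CPM (log2 fold change -0.40 ± 0.11), but not under library totals. With the lot block the count was 9, 8 higher and 1 lower (28.5% of all genes called), which adds Kif11, Kif18a, Kif21b and Kif26b. In this comparison 12 of 14 neuron markers were higher in wt PI (median 1.66) and 4 of 5 surface ectoderm markers lower (median -1.89). Neural progenitor markers had 4 higher and 1 lower of 10, midbrain markers 3 of 6 higher, mesenchyme markers 2 higher and 3 lower of 8, erythroid markers 2 higher and 1 lower of 8, and no endothelial or placenta marker was called. Their part in the kinesin values was not tested. Kif21a stayed called without any 1 library, and the count was 2 without wt PI replicate 1 (4.43% of all genes called), 1 without wt PI replicate 2 (2.58%), 2 without wt 9.0 dpc replicate 1 (5.19%) and 3 without wt 9.0 dpc replicate 2 (9%).

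**Figure D4:**
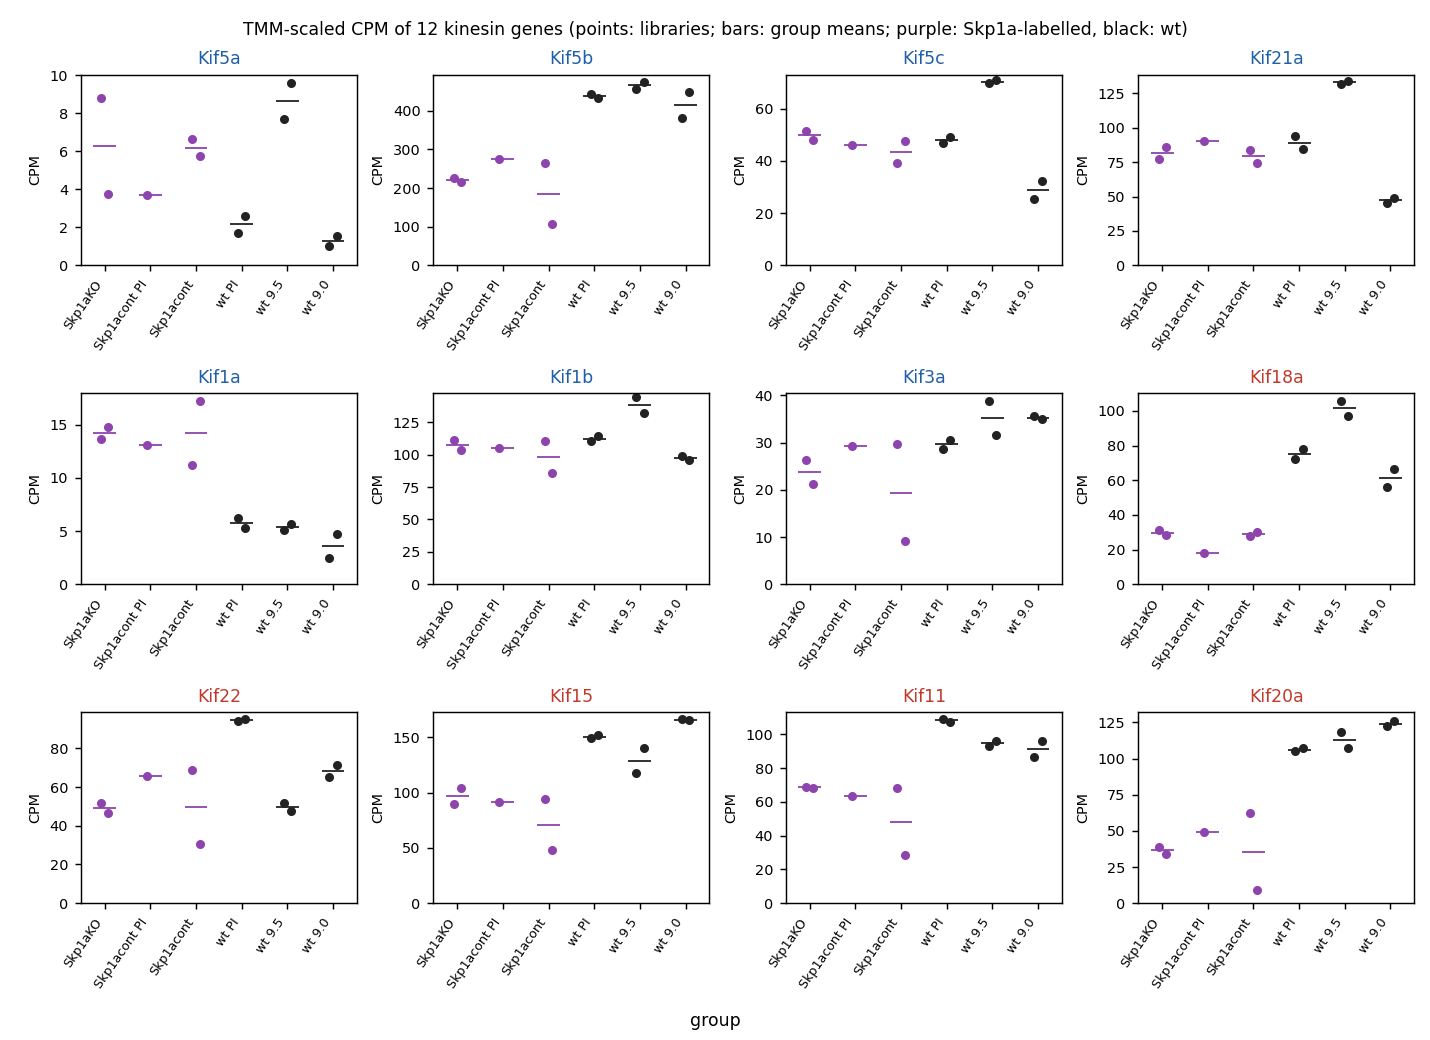
Each panel plots the TMM-scaled CPM of 1 kinesin gene, with a point per library and a bar at the group mean, from Skp1aKO on the left to wt at 9.0 dpc on the right. Blue titles mark axonal transport and red titles mitotic kinesins. Kif5a, Kif5c and Kif21a peak in wt at 9.5 dpc among the wt groups, Kif22 peaks in wt PI, and the 5 Skp1a-labelled points of Kif18a lie below every wt point.

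Libraries labelled Skp1aKO were compared with Skp1acont to ask how these labels differ at 9.5 dpc. In the fit of all 11 libraries over 18837 genes, 39 kinesin genes were tested and none was called, against 0% of all genes. At an unadjusted p under 0.05 the count was 0 as well, and DESeq2 called none of them (0.51% of all genes). The result changed with either Skp1acont library left out, and these 2 libraries lay far apart. Kif20a had 39.2 and 34.2 CPM under the Skp1aKO label, against 62.7 and 8.75 CPM in Skp1acont, and Kif11 had 68.9 and 68.2 CPM, against 68.0 and 28.4 CPM. Kif4 had 13.5 and 15.5 CPM in those labelled Skp1aKO, against 40.1 and 8.45 CPM in Skp1acont. In both Kif20a and Kif4 the Skp1aKO values lie between the 2 Skp1acont values. Without Skp1acont replicate 1, 13 genes were called, 12 of them higher, while 31.3% of all genes were called. Without Skp1acont replicate 2, which has the highest background, 5 were called, with Kif4 (-1.45), Kif20a (-0.75) and Kif3c (-0.92) lower and Kif26b (1.13) and Kifc3 (2.49) higher, while 27.3% of all genes were called. Kif20a, Kif4 and Kif3c took the opposite sign in these 2 fits. Kifc3 rests on 13 and 17 counts in the libraries labelled Skp1aKO, against 3 in Skp1acont replicate 1. Among the axonal genes, Kif21a had 77.1 and 85.9 CPM in those labelled Skp1aKO, against 84.2 and 74.6 CPM in Skp1acont, and Kif5c had 51.4 and 48.1 CPM, against 39.3 and 47.4 CPM.

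Set against wt at 9.5 dpc, both Skp1a labels showed less Kif18a and Kif2a and more Kif1a and Kif26a. Kifc2 and Kif18b were called higher as well, but neither passed the filter on low counts in the wt libraries alone. They were tested only in the fit with the Skp1a-labelled libraries, so a higher value there is in part set by the filter. The libraries labelled Skp1aKO had 8 of 39 called, 5 higher and 3 lower, while 36.4% of all genes were called (17.6% higher and 18.7% lower). Skp1acont had 9 of 39 called, 6 higher and 3 lower, while 36.4% of all genes were called (19.3% higher and 17.1% lower). Both comparisons use the same wt libraries, and the Skp1a labels cannot be told apart from the background and mitochondrial share that go with them. Total counts overlapped, with 2320599 to 4203553 in Skp1a-labelled libraries, against 3392251 to 11607085 in wt.

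Kif18a was lower under both labels. It had 31.0 and 28.3 CPM in libraries labelled Skp1aKO, 18.2 CPM in Skp1acont PI, 27.9 and 30.2 CPM in Skp1acont, and 106 and 97.2 CPM in wt at 9.5 dpc. No Skp1a-labelled library reached a wt value of any group, which start at 56.0 CPM. The log2 fold change was -1.77 ± 0.27 for Skp1aKO (edgeR adjusted p = 0.00419) and -1.80 ± 0.27 for Skp1acont (edgeR adjusted p = 0.00729). Kif2a had 64.6 and 69.8 CPM in libraries labelled Skp1aKO, 84.0 and 41.1 CPM in Skp1acont, and 170 and 176 CPM in wt at 9.5 dpc. This gene was called lower under both labels (-1.36 ± 0.39 and -1.46 ± 0.39). Kif4 gave -2.16 ± 0.55 for Skp1aKO (edgeR adjusted p = 0.0183) and -1.39 ± 0.53 for Skp1acont (edgeR adjusted p = 0.0621). The direct comparison of the 2 labels in Kif4 gave -0.77 ± 0.54 (edgeR adjusted p = 0.909). Kif5b had 227 and 216 CPM in libraries labelled Skp1aKO, 275 CPM in Skp1acont PI, 265 and 106 CPM in Skp1acont, and 458 and 475 CPM in wt, and was called lower in Skp1acont (-1.33 ± 0.46, edgeR adjusted p = 0.0479), but not with the lot block (edgeR adjusted p = 0.0512) or with library totals (-0.62, edgeR adjusted p = 0.225). With the lot block each label had 10 calls, while 39.4% of all genes were called for Skp1aKO and 38.5% for Skp1acont. The block adds Kifc1 (1.86) and Kifc3 (2.69) for Skp1aKO, and Kif20a (-1.83) and Kif4 (-1.50) for Skp1acont. Kifc3 did not pass the filter in the wt libraries alone, so its higher value is in part set by the filter. It stood at 0.518 to 1.38 times the background in Skp1a-labelled libraries, against 0 to 2.56 times in wt.

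Kif22, Kif23 and Kif2c were called under neither label. Kif22 had 52.0 and 46.4 CPM in libraries labelled Skp1aKO, 65.7 CPM in Skp1acont PI, 69.0 and 30.5 CPM in Skp1acont, and 51.8 and 47.5 CPM in wt at 9.5 dpc. Kif23 had 65.5 and 77.3 CPM in libraries labelled Skp1aKO, 64.6 CPM in Skp1acont PI and 60.0 and 39.2 CPM in Skp1acont. Kif2c had 52.7 and 61.2 CPM in libraries labelled Skp1aKO, 45.4 CPM in Skp1acont PI and 43.1 and 33.5 CPM in Skp1acont. Skp1acont replicate 2 was the lowest of the 5 in all 3 genes. Of the axonal genes that were not called under either label, Kif3a had 26.3 and 21.2 CPM in libraries labelled Skp1aKO, 29.4 CPM in Skp1acont PI and 29.6 and 9.06 CPM in Skp1acont. Kif5a had 8.78 and 3.75 CPM in those labelled Skp1aKO, and Kif5c made up 17.9% and 18.0% of the kinesin-1 heavy chain counts there, 14.2% in Skp1acont PI, 12.6% and 29.8% in Skp1acont, and 13.0% and 12.7% in wt at 9.5 dpc. The highest share was that of Skp1acont replicate 2, where Kif5b was lowest.

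Most of the higher genes had few counts in wt. Kif1a had 13.7 and 14.8 CPM in libraries labelled Skp1aKO, 11.2 and 17.2 CPM in Skp1acont, and 5.14 and 5.68 CPM in wt (log2 fold change 1.38 ± 0.36 and 1.37 ± 0.36). Kif26a, another atypical kinesin, had 10.5 and 9.94 CPM in libraries labelled Skp1aKO, 10.8 and 16.0 CPM in Skp1acont, and 5.14 and 4.06 CPM in wt (1.18 ± 0.36 and 1.56 ± 0.36). Kifc2, a minus-end directed kinesin of neurons, had 4.49 and 4.42 CPM in libraries labelled Skp1aKO, 3.42 and 9.66 CPM in Skp1acont, and 1.10 and 0.271 CPM in wt, the last on 3 and 2 counts. Kif18b, a regulator of astral microtubules, had 1.93 and 1.55 CPM in libraries labelled Skp1aKO, 2.47 and 2.41 CPM in Skp1acont, and 0.367 and 0.271 CPM in wt on 1 and 2 counts. In these 4 genes, libraries of both labels lay above both wt libraries at 9.5 dpc. For Kif18b this did not extend to the remaining wt groups. Its level was 1.73 and 1.78 CPM at 9.0 dpc, while wt PI gave 2.07 and 0.968 CPM. Both Skp1aKO values of Kif18b fall inside that range, and the single Skp1acont PI library stood at 0.978 CPM. Kif24, a centriolar kinesin, was called in the comparison of Skp1aKO (1.17 ± 0.40), and Kifc1 and Kif27 in that of Skp1acont. Like Kifc2 and Kif18b, Kif27 did not pass the filter in the wt libraries alone. The background moves with this direction, and its part was not tested. Read as multiples of the background expected for the length of the gene, Kif18b stood at 0.775 to 3.33 in the Skp1a-labelled libraries, against 0.575 to 5.01 in wt, Kif27 at 0.496 to 1.73, against 0.591 to 1.71, and Kifc2 at 2.19 to 4.19, against 0.522 to 3.08. For Kif1a the multiple was 2.11 to 6.47, against 2.55 to 5.75, and for Kif18a 3.52 to 13.7, against 42.9 to 111. Kif26a stood at 2.65 to 7.54, against 3.62 to 9.82 in wt. Kif24 had 4.58 to 18.2, against 12.4 to 34.5, and Kifc1 had 2.99 to 4.75, against 4.21 to 10.8. Between 9 and 20 of the 41 kinesin genes lay under 2 times the background in a Skp1a-labelled library, against 8 to 12 in a wt library.

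**Figure D5:**
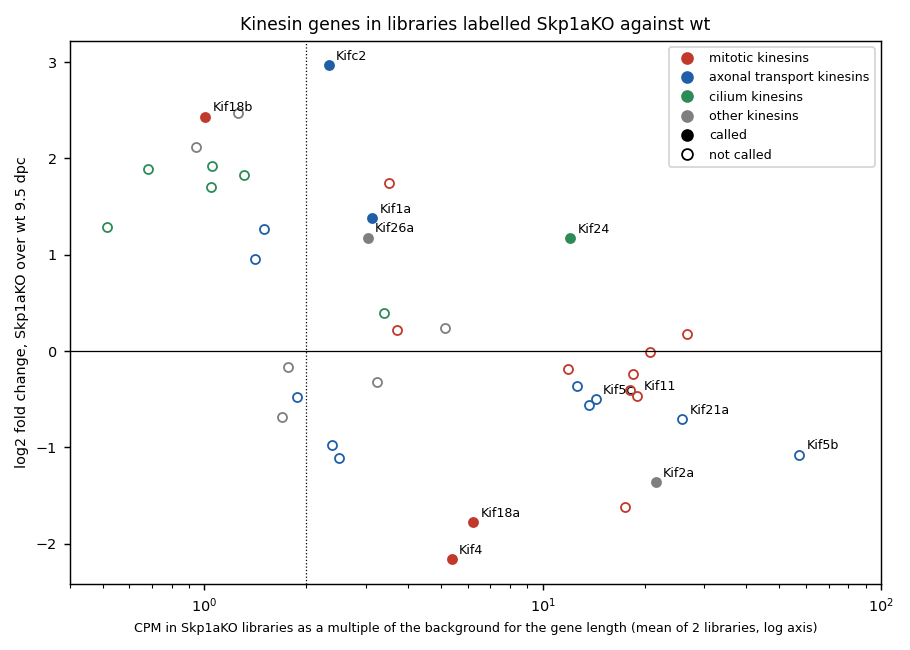
Each point is a kinesin gene, with its level in the libraries labelled Skp1aKO as a multiple of the background on a log axis and its log2 fold change against wt at 9.5 dpc on the other axis. The dotted line marks 2 times the background and filled points were called. Kif18a (-1.77), Kif4 (-2.16) and Kif2a (-1.36) are the lower genes, and the points left of the dotted line are mostly above 0. Among these points, Kif9, Kif17, Kif19a, Kif27 and Kifc3 did not pass the filter in the wt libraries alone. Their place above 0 is thus in part set by the filter.

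The direction of the kinesins against wt depends on scaling. The median of all genes was 0.24 for Skp1aKO under TMM and 1.04 under library totals, where 18 kinesins were called, 16 higher and 2 lower, while 43.7% of all genes were called. Kif18a (-0.97) and Kif4 (-1.34) were the lower ones, and Kif2a was no longer called. For Skp1acont the median of all genes was 0.34 under TMM and 1.08 under totals, where 16 kinesins were called, 15 higher and 1 lower, while 44.3% of all genes were called. Under TMM, the mitotic kinesins had a median of -0.21 for Skp1aKO and -0.61 for Skp1acont, the axonal transport kinesins -0.49 and -0.53, and the cilium kinesins 1.70 and 1.97. Of the 7 cilium genes, Kif9, Kif17, Kif19a and Kif27 did not pass the filter in the wt libraries alone. In Skp1a-labelled libraries they stood at 1.10 to 2.10, 0.607 to 1.18, 0.443 to 1.57 and 0.496 to 1.73 times the background, in this order. The cilium medians thus rest largely on genes near the background. The number of calls moved with each library left out. With Skp1aKO replicate 1 left out, 0 kinesins were called for Skp1aKO (1.91% of all genes), and likewise 0 with its replicate 2 left out (4.62%). Leaving out wt replicate 1 gave 2 calls (9.12%), and leaving out wt replicate 2 gave 0 (1.53%). It was 22 in a fit that leaves out Skp1acont replicate 2, where 67.9% of all genes were called. For Skp1acont, 32 were called with its replicate 1 left out (74% of all genes), 13 with its replicate 2 left out (39.1%), 1 with wt replicate 1 left out (2.76%) and 0 with wt replicate 2 left out (0.0709%).

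Of the partner genes in libraries labelled Skp1aKO, 40% of the light chains and adaptors, 38.9% of the dynein and dynactin genes and 47.8% of the mitotic partners were called against wt, beside 36.4% of all genes. There, mitotic partners had 1 higher and 10 lower of 23 (median -0.84). Plk1 was the higher one (1.40), and the lower ones include Ect2 (-3.11) and Ccnb2 (-2.25). Light chains and adaptors had 3 higher and 5 lower of 20, among them Kifap3, the cargo subunit of kinesin-2, with 15.4 and 16.3 CPM in libraries labelled Skp1aKO, against 67.5 and 72.4 CPM in wt. Dynein and dynactin genes had 1 higher and 6 lower of 18, and Dynll2 was the higher one (1.58). Neuron markers had 8 of 14 lower (median -1.46), erythroid markers 5 of 8 lower, endothelial markers 3 of 6 lower, mesenchyme markers 3 of 8 lower, neural progenitor markers 1 higher and 2 lower of 10, surface ectoderm markers 1 of 5 lower, placenta markers 1 higher and 1 lower of 3, and midbrain markers 4 of 7 higher. In Skp1acont, 1 mitotic partner was higher and 11 lower of 23, light chains and adaptors had 3 higher and 5 lower of 20, and 5 of 18 dynein and dynactin genes were lower. Neuron markers had 8 of 14 lower, erythroid markers 5 of 8, mesenchyme markers 4 of 8, neural progenitor markers 4 of 10, endothelial markers 1 of 6 and surface ectoderm markers 1 of 5, while 3 of 7 midbrain markers were higher and placenta markers had 1 higher and 1 lower of 3. The part of these markers in the kinesin values was not tested.

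The effect of PI on the kinesins was compared between Skp1acont and wt by the difference of the 2 contrasts in the fit of all libraries. None of 39 genes was called for this difference (3 at an unadjusted p under 0.05, smallest edgeR adjusted p 0.77). The Skp1acont side rests on 1 PI library, which is assumed to vary like the other groups. Kif5a had 3.72 CPM in that library, against 6.65 and 5.74 CPM in Skp1acont, Kif22 had 65.7 CPM, against 69.0 and 30.5 CPM, and Kif21a had 90.6 CPM, against 84.2 and 74.6 CPM. A p that misses the threshold does not show that PI acted alike in both.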

How the data were processed

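The authors deposited whole-number read counts per gene, with no normalization, for 11 of the 12 labelled libraries, and the other was not analysed here. The submitters' processing notes name Trim Galore 0.6.7 and the build GRCm38. The sources used here give no aligner, counter or strand setting. The kinesin genes, their roles and all gene lists were chosen with earlier results of these data known, and the axonal, mitotic, partner and marker lists are described by counts only. Libraries were grouped by title. edgeR 4.0.16 (R 4.3.3) was run with filterByExpr, TMM and the robust quasi-likelihood F test, two-sided, on 18837 genes of all 11 libraries for comparisons with a Skp1a label and on 13126 genes of the 6 wt libraries for the others. Variation between libraries (BCV) was 35.3% in the first fit and 19.6% in the second. With the lot as a replicate block it was 32.3% and 7.19%. Fold changes, SE and adjusted p-values are from fits without the block unless stated otherwise, although the lots pair the wt libraries. CPM values are TMM-scaled and SE is that of the log2 fold change. All 41 genes were matched to GENCODE M21 of GRCm38. Deviations of same-lot libraries correlated in all 3 pairs of wt groups (r 0.313 to 0.368 across genes), so the lots were taken as pairing the wt libraries. The same r was 0.158 to 0.179 between Skp1aKO and the wt groups, -0.0126 to 0.142 between Skp1acont and the wt groups, and 0.112 between the labels. In wt, lot 1 libraries had 3392251 to 4007663 counts and lot 2 libraries 9217568 to 11607085. Lot and depth thus cannot be told apart in the wt libraries. The background is a median over the chemoreceptor genes, as CPM by library totals per kb of exon. Every kinesin could be named. Overlap of ranges was described for named genes only, and the share of all genes without overlap was not counted. Values per library were given for a panel of 12 and for the 5 called kinesins with the smallest p in a comparison, and other lists gave at most 4 genes a comparison, those with the smallest p. On simulated counts the fits were tested with 200 changed genes. Alternatives were DESeq2 1.42.0, its size factors, library totals, other filters, the lot block, a fit that is not robust, other sets of libraries, and leaving out each library, where the lone library of a group is assumed to vary like the other groups.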

Additional observations from a re-analysis of the deposited data

How the results depend on the processing

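Counts of called kinesins are given by comparison. For Skp1aKO over wt 9.5 dpc (8) they were 18 with library totals, 20 with only the compared groups and 22 without the second Skp1acont library, and 0 to 2 with 1 library left out. For Skp1acont over wt 9.5 dpc (9) they were 16 with totals, 0 with only the compared groups and 0 to 32 with 1 library left out. For Skp1aKO over Skp1acont (0) they were 0 to 13. For wt 9.5 dpc over wt 9.0 dpc (11) they were 6 with DESeq2, 2 in the fit of all 11 libraries and 7 to 9 with 1 left out. For wt PI over wt 9.5 dpc (10) they were 5, 0 and 2 to 7 in the same order. For wt PI over wt 9.0 dpc (5) they were 3, 0 and 1 to 3, and 9 with the lot as a replicate block. The block gave 10 for each Skp1a label over wt and 0 between the labels. The share of all genes called moved as well. With only the compared groups it was 69.3% for Skp1aKO and 0% for Skp1acont over wt. In the fit of all 11 libraries it was 1.6% for wt 9.5 dpc over wt 9.0 dpc. For wt PI it was 0.069% over wt 9.5 dpc and 0.0106% over wt 9.0 dpc in that fit. DESeq2 called 8.27% of all genes for wt PI over wt 9.0 dpc. The BCV was 35.3% in the fit of all 11 libraries and 19.6% in the wt fit. It was 19.4% in the fit of all but Skp1acont replicate 2, so the wider spread went with the pair of Skp1acont libraries. It cannot be assigned to either library, because leaving out replicate 2 leaves a lone library with no spread. The BCV without Skp1acont replicate 1 was not recorded. The cause of these shifts was not tested. Over single genes, 2096 values kept direction and side of the threshold, 155 changed sign without a call in either fit, 165 lost a call, 111 gained one, and 5 changed sign with a call, all of these 5 with a Skp1acont library left out. For Skp1aKO over Skp1acont, values without Skp1acont replicate 1 and without replicate 2 were 0.67 and -0.47 for Kif22, 1.05 and -0.92 for Kif3c, 0.75 and -1.45 for Kif4, and 2.04 and -0.75 for Kif20a. For Skp1acont over wt they were -0.66 and 0.60 for Kif22. Depth limits the low genes: 3 counts amount to 0.258 to 1.29 CPM per library by library totals, without TMM scaling.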

Other observations

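Rows near the kinesins that the naming rule leaves out had few counts. Kif22-ps, a processed copy by its name, had 2.14 and 2.87 CPM in libraries labelled Skp1aKO, 0.783 CPM in Skp1acont PI, 0.190 and 1.21 CPM in Skp1acont, and 0 to 0.135 CPM in the 6 wt libraries. Kif4-ps had 1.50 and 1.10 CPM in libraries labelled Skp1aKO, 0.978 CPM in Skp1acont PI, 0.950 and 2.11 CPM in Skp1acont, and 0 to 0.711 CPM in wt. These values rest on 13 counts or fewer per library. Both were higher in each Skp1a-labelled library than in any wt library, as was the background rate.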
